A study of Mus musculus with 45 samples.

Results

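Nrp1-sufficient regulatory T cells (Tregs) of heterozygous mice were compared with Tregs of wild-type mice, both sorted from lymph nodes labelled NDLN (non-draining), in a study of B16 melanoma, a transplantable mouse skin tumour. The comparison took the 10 libraries of these groups out of 45 in the series, 5 of each group. Replicates 3 and 4 of the heterozygous group differed by little more than counting noise and were summed, which left 4 samples against 5 out of 41 in the series. The heterozygous group has the genotype label Het_WT and is called HetWT here. The wild-type group has the genotype label WT. Each library was made from 5000 sorted Tregs, sorted singly (replicates 2, 3 and 4) or doubly (ds1 and ds2, read as double from their names), and the RNA was amplified before sequencing. The sources used here do not give the alleles, the promoter that drives deletion of Nrp1, the markers of the sort, or the age and sex of the mice. They also leave unsaid whether replicates are different animals and whether animals were pooled. The p-values therefore measure only how far these samples vary, and that variation may be technical.

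Tregs are CD4 T cells that restrain immune responses, and the X-linked gene Foxp3 encodes the transcription factor that defines them. In a female that is heterozygous for an X-linked recombinase, random inactivation of an X chromosome in each cell leaves recombined and unrecombined Tregs side by side in the same tissue, so that sufficient cells share their surroundings with deficient ones. Neuropilin-1, the product of Nrp1, is a membrane co-receptor that binds semaphorins and growth factors and is found on many Tregs that arise in the thymus. Interferon gamma, the cytokine in the title of the series, is made mostly by effector T cells and NK cells. The question of the comparison is whether Tregs that kept Nrp1, but lived beside deficient Tregs, differ in a lymph node away from the tumour from Tregs of mice in which all Tregs kept it.

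The samples were of unequal depth and likeness. Total counts ran from 4089172 to 35787148 in the 5 HetWT libraries and from 5408375 to 17544940 in the 5 WT libraries. Sample ds1 of HetWT stood apart from the rest. Its median correlation with the other 8 samples was 0.705, against 0.795 to 0.901 for each of the others, and it held counts for 20055 genes where the other 9 libraries held 11558 to 19485. Only replicate 3 of WT held reads of the Y-linked genes, Ddx3y at 89.8 CPM and Eif2s3y at 148 CPM, where the 4 HetWT samples held 0 to 0.0536 CPM of either. The ds2 samples of both groups were alike in turn. Their chi-square per degree of freedom was 18.7, below the 62.0 to 229 of the 19 other pairs within the groups, and Malat1, a nuclear RNA, took 1.70% and 1.81% of their counts against 0.164% to 0.571% in the other 8 libraries. Values without both ds1 samples, an alternative added after the data were seen, are given beside the genes they move.

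Nrp1 (chromosome 8, 128358604 to 128503363, plus strand, mm10) is the gene that tells the sufficient from the deficient Tregs of the series. Levels are given as CPM, counts scaled to library size with TMM factors, in the order of replicates 2, ds1, ds2 and the sum of 3 and 4 for HetWT, and 2, 3, ds1, ds2 and 4 for WT. Nrp1 stood at 219, 1439, 340.4 and 334 CPM in HetWT and 265, 412, 388, 410.2 and 323 CPM in WT. The HetWT sample ds1 was the highest of the 9, and the other 3 HetWT samples lay below or within the WT range. Group means were 583 ± 573 CPM (SD, n = 4) in HetWT and 359.7 ± 64.2 CPM (SD, n = 5) in WT. The difference in mean log2(CPM + 1) was 0.29, with p = 0.794 in a two-sided exact permutation test of 4 against 5 samples, where the smallest p possible is 0.0159. In the fit across all genes it was 0.56 ± 0.43 (SE), and without both ds1 samples it turned to -0.22. The 95% interval of the fit was -0.30 to 1.42 on the log2 scale.

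The neighbouring cells of the heterozygous lymph nodes, labelled Het_Nrp1- and called HetNrp1def here, held 146 to 342 CPM of Nrp1 over 4 samples. The difference of HetWT from them was 1.47 on the log2 scale (unadjusted p = 0.00251, edgeR adjusted p = 0.721). HetWT ds1 alone lay above the HetNrp1def range, and the other 3 HetWT samples lay inside it. The HetNrp1def median was 151 CPM, below all 4 HetWT samples, and its highest sample alone made the upper end of that range. The difference of HetNrp1def from WT was -0.91 on the log2 scale (edgeR unadjusted p = 0.0437). Which exons were removed is not stated, so a count over the full gene is no check of the deletion.

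Foxp3 (chromosome X, 7573644 to 7595245, plus strand) stood at 2.60, 1.84, 32.0 and 20.1 CPM in HetWT and 5.44, 0.573, 0.951, 57.4 and 0 CPM in WT. It was low for the defining gene of a Treg in 5 of the 9 samples of both groups, at under 3 CPM, and highest in both ds2 samples. The groups overlapped throughout, with means of 14.1 ± 14.6 CPM (SD, n = 4) and 12.9 ± 25 CPM (SD, n = 5) and an exact permutation p of 0.421. Other Treg markers were abundant in every sample. Ikzf2, which encodes the transcription factor Helios of thymus-derived Tregs, stood at 1398, 1324, 973 and 1222 CPM in HetWT and 866, 1163, 1216, 934 and 907 CPM in WT. Il2ra, which encodes the CD25 chain of the IL-2 receptor, stood at 541, 751, 442 and 654 CPM in HetWT and 441, 682, 579, 599 and 708 CPM in WT. Cd4 stood at 148 to 649 CPM in HetWT and 166 to 447 CPM in WT, and Cd8a, a marker of CD8 T cells, at 1.20 to 75.5 CPM and 0 to 81.2 CPM. Ikzf2, Il2ra and Cd4 were thus present in all 9 samples, and Foxp3 was at 0 in WT replicate 4.

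Ifng (chromosome 10, 118441046 to 118445892, plus strand), the gene of interferon gamma, stood at 39.3, 222, 1.40 and 13.0 CPM in HetWT and 2.18, 7.81, 0, 5.25 and 3.98 CPM in WT. HetWT samples 2, ds1 and 4 lay above all 5 WT samples, and HetWT ds2 lay inside the WT range. Means were 68.8 ± 103 CPM (SD, n = 4) and 3.84 ± 2.97 CPM (SD, n = 5). The difference in mean log2(CPM + 1) was 2.60, with an exact permutation p of 0.0952 and 0.286 after adjustment over Nrp1, Foxp3 and Ifng. In the fit across all genes it was 3.21 ± 1.19 (SE), with an unadjusted p of 0.0299 and an edgeR adjusted p of 0.954, and without both ds1 samples it was 1.01. The Ifng difference was therefore not beyond the spread of these samples. Ncr1, a receptor of NK cells, which also make interferon gamma, stood at 21.9, 0.461, 0 and 0 CPM in HetWT and 0, 0.573, 0, 0 and 7.96 CPM in WT. Ncr1 was at 0 in 5 of the 9 samples and at 0.461 CPM in HetWT ds1, the sample with the most Ifng. Other NK cell markers varied. Mean Eomes was 8.57 CPM in HetWT and 2.15 CPM in WT, and mean Prf1 3.43 CPM and 11.3 CPM. The NK cell markers summed to 198, 15.2, 6.20 and 37.9 CPM in HetWT and 4.08 to 126.2 CPM in WT. HetWT 2, which held 39.3 CPM of Ifng, had the highest sum. The part of NK cells in the Ifng values was not tested.

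**Figure D1:**
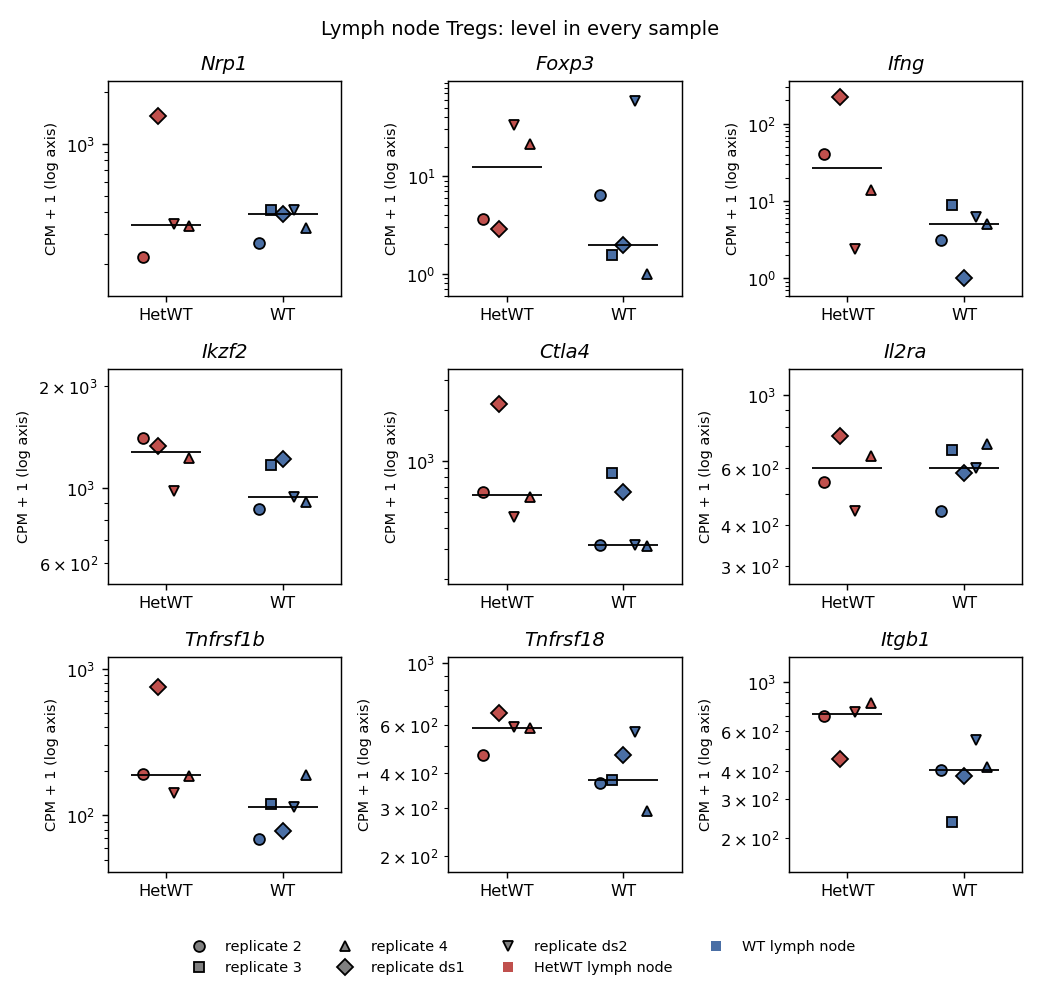
Level of 9 genes in each of the 9 lymph node Treg samples, as CPM + 1 on a log axis, with HetWT (red, n = 4) and WT (blue, n = 5) side by side, the replicate shown by the marker and the group median by the line. HetWT replicate 4 is the sum of replicates 3 and 4; the ds1 diamond of HetWT is the highest point for Nrp1, Ifng, Ctla4, Il2ra, Tnfrsf1b and Tnfrsf18, and the groups overlap in all 9 panels.

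Across all genes no difference passed the test. Of 14668 genes tested with edgeR, 0 had an adjusted p below 0.05 (0% of those tested), and the lowest adjusted p was 0.471. At an unadjusted p below 0.05 there were 759 genes (5.17%), 474 higher in HetWT (3.23%) and 285 lower (1.94%). By limma on the authors' log2 values 0 of 10832 genes passed and 615 had an unadjusted p below 0.05. DESeq2, run with the same model, called 86 genes, 69 higher and 17 lower, and put 1322 at an unadjusted p below 0.05. Of the 86 calls, 78 also had an edgeR unadjusted p below 0.05, and 21 had a mean under 5 CPM in both groups. In 8 the groups did not overlap, where 83 of the 14668 genes tested (0.566%) were so. HetWT ds1 was the highest HetWT sample in 55 of the 69 higher calls, and a single sample held a median 68.6% of the summed CPM of the higher group. These counts are descriptions, since the 86 genes were chosen for their difference. The median fold change of all genes tested was -0.06 on the log2 scale, with quartiles of -0.70 and 0.58.

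The balance of the unadjusted differences moved with the ds1 samples. HetWT ds1 was the highest of the 9 samples in 280 of the 474 genes higher at an unadjusted p (59.1%), and WT ds1 in 101 of the 285 lower genes (35.4%). Over all genes tested HetWT ds1 was the highest in 4293 (29.3%) and WT ds1 in 2153 (14.7%). These shares are descriptions, since genes chosen as higher in a group tend to have their highest sample in it. Without both ds1 samples 725 genes had an unadjusted p below 0.05, 203 of them higher and 522 lower, and 0 an adjusted one. The share of higher genes thus went from 62.5% to 28.0% when these 2 samples were left out. Genes whose groups did not overlap numbered 83 (0.566%), 52 with HetWT above (0.355%) and 31 with HetWT below (0.211%).

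**Figure D2:**
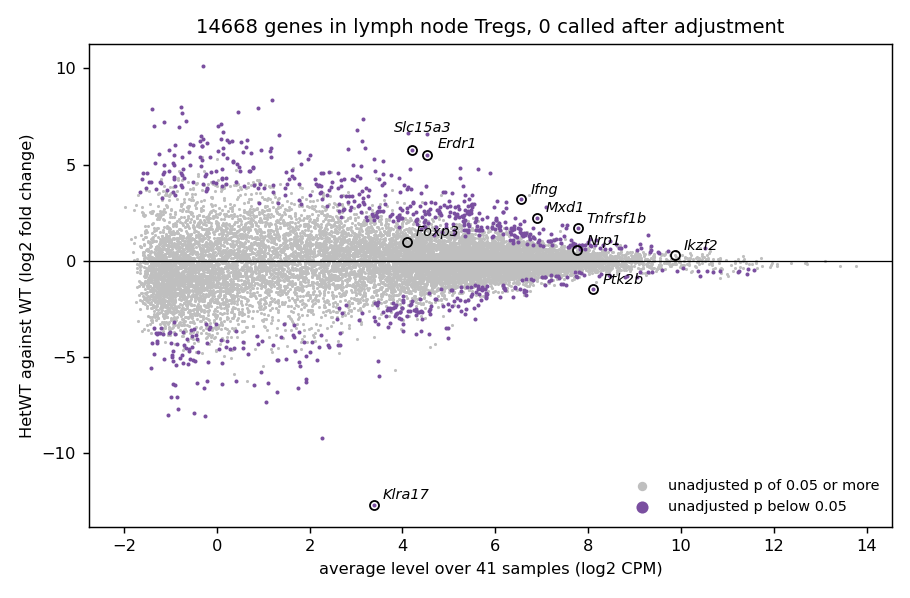
Fold change of HetWT against WT lymph node Tregs (log2, edgeR with the replicate number as a block) against the average level over 41 samples (log2 CPM) for 14668 genes, with 759 genes of unadjusted p below 0.05 in purple and 10 genes named. The spread narrows from low to high levels, and no gene passed after adjustment.

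The genes with the lowest unadjusted p were named by a fixed rule, 10 in each direction, and none of the 20 passed in edgeR. Erdr1, which encodes a small stress-linked secreted protein and lies in the region shared by the X and Y chromosomes, stood at 55.0, 76.7, 22.0 and 39.4 CPM in HetWT and 0.653, 32.2, 0, 0.154 and 0.306 CPM in WT. All 4 HetWT samples held it at 22.0 CPM or more, and in WT only replicate 3, the sample with Y-linked reads, held more than 0.653 CPM. The difference was 5.47 ± 0.98 (SE) (unadjusted p = 4.40e-05, edgeR adjusted p = 0.471). With no replicate block it was 2.85, close to the log2 ratio of the group means (2.86), and without both ds1 samples 4.49. Without WT replicate 3 it was 7.79, with an edgeR adjusted p of 0.00208, and Erdr1 was then the only gene of the comparison that passed. By library, all 5 of the HetNrp1def lymph node group also held Erdr1 (22.6 to 92.1 CPM without TMM scaling), as did all 5 of the HetWT tumour group (16.3 to 85.6). The 4 WT tumour libraries without Y-linked reads held 0 to 2.44, and the 1 with them 7.13. The other lymph node group labelled Het_Nrp1- held 1.36 to 30.8 in its 4 libraries without Y-linked reads, and its tumour counterpart 0.753 to 15.9 in 3 such libraries. Over the series 7 of 45 libraries held at least 10 CPM over 4 Y-linked genes, none of them in a HetWT group. Sex of the mice was not given and its part in the Erdr1 values was not tested.

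Slc15a3 (chromosome 19, 10839727 to 10859362, plus strand), a transporter of histidine and small peptides in lysosomes, stood at 3.99, 13.8, 4.603 and 17.2 CPM in HetWT and 0, 0.358, 0.317, 0.463 and 0 CPM in WT. The groups did not overlap, and no WT sample reached 0.5 CPM. The difference was 5.74 ± 1.21 (SE) (unadjusted p = 6.52e-05, edgeR adjusted p = 0.471), 5.73 without both ds1 samples and 6.75 in the single-sorted samples alone, where it was the only gene with an edgeR adjusted p below 0.05 (0.0179). WT levels were of few counts, so the size of this fold rests on levels near 0. HetNrp1def lymph node Tregs held 0.0578 to 3.90 CPM, below all 4 HetWT samples and overlapping WT.

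Mxd1 (chromosome 6, 86647042 to 86669161, minus strand), which encodes a partner of MAX that opposes Myc, stood at 42.3, 329, 38.8 and 71.4 CPM in HetWT and 22.4, 5.95, 14.6, 31.8 and 27.6 CPM in WT. The groups did not overlap here either, with HetWT ds1 far above the rest. The difference was 2.23 ± 0.51 (SE) (unadjusted p = 0.000146, edgeR adjusted p = 0.471) and 1.13 without both ds1 samples. HetNrp1def lymph node Tregs held 28.1 to 105 CPM of Mxd1. In DESeq2 the adjusted p was 5.81e-06 for Erdr1, 0.000161 for Slc15a3 and 0.0100 for Mxd1. DESeq2 called Sdhd, Rras, Mtx2, Tmem68, Cops7b, Neurl2 and Mospd1 too, at adjusted p from 2e-07 (Rras) to 0.0486 (Neurl2). Its calls thus do not set Erdr1, Slc15a3 and Mxd1 apart from the other leading higher genes.

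HetWT ds1 was the highest sample for all the other 7 leading genes higher in HetWT. For 6 of them the fitted difference fell to 1.66 or less without both ds1 samples. Sdhd, a membrane anchor of succinate dehydrogenase, stood at 157, 329, 137 and 141 CPM in HetWT and 72.7, 175, 13.0, 123 and 127 CPM in WT. Its fitted difference was 2.78 ± 0.58 (SE), where the ratio of the group means gives 0.90 on the log2 scale and the fit without the block 0.90, and without both ds1 samples it was 0.33. The block sets each sample against others of its replicate number, and the other 6 samples numbered ds1 in the series held 2.91 to 15.6 CPM of Sdhd, while HetWT ds1 held 329. Rras, a Ras-related GTPase, stood at 5.04, 217, 23.8 and 29.6 CPM in HetWT and 14.6, 0.717, 0.159, 9.88 and 4.49 CPM in WT. Its difference was 6.65 ± 1.14 (SE) in the fit and 1.66 without both ds1 samples. Mtx2, a protein of the outer mitochondrial membrane, stood at 448 CPM in HetWT ds1 and 0.233 to 5.07 CPM in the other 6 ds1 samples, and without both ds1 samples its difference went from 4.79 to 0.35. Tmem68, a transmembrane protein, turned from 4.81 to -0.26, and Mospd1, a protein of the endoplasmic reticulum, from 6.59 to 0.59. Cops7b, a subunit of the COP9 signalosome, went from 4.30 to 1.32. Neurl2, which takes part in ubiquitin ligation, had 338 counts in HetWT and 2 in WT, a ratio of 101 with a counting interval of 27.8 to 839.6, and HetWT ds1 held 58.3 CPM against 0 to 2.20 CPM in the other 3 HetWT samples. Of the HetWT counts of Neurl2, ds1 held 253, replicate 2 82, ds2 3 and replicate 4 0, so that its ratio rests on few samples. HetWT ds1 held 95.4% of its summed HetWT CPM. The edgeR unadjusted p of Neurl2 was 0.00440 without both ds1 samples, against 0.000675 with them.

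Of the 10 leading genes lower in HetWT, Ptk2b was the most abundant. Ptk2b (chromosome 14, 66153257 to 66281052, minus strand), which encodes the focal adhesion kinase family member Pyk2, stood at 219, 118, 79.9 and 111 CPM in HetWT and 236, 815, 223, 401 and 173 CPM in WT. HetWT replicate 2 lay inside the WT range and the other 3 HetWT samples lay below it. The difference was -1.48 ± 0.40 (SE) (unadjusted p = 0.00122, edgeR adjusted p = 0.861) and -1.55 without both ds1 samples. Lrch1, a regulator of T cell migration, stood at 59.4, 1.84, 22.2 and 24.2 CPM in HetWT and 58.4, 61.8, 156, 83.8 and 60.4 CPM in WT. The groups overlapped only between HetWT replicate 2 and WT replicate 2, and its difference was -2.46 ± 0.67 (SE), or -1.05 without both ds1 samples. Setdb2, a histone methyltransferase, stood at 23.3, 0.230, 46.4 and 20.6 CPM in HetWT and 38.9, 45.9, 97.3, 59.0 and 68.2 CPM in WT. HetWT ds2 lay inside the WT range, and the difference went from -3.47 to -0.94 without both ds1 samples. Pigc, an enzyme of GPI anchor synthesis, went from -3.51 to -0.91 in the same way. Nanos1, an RNA-binding protein known from germ cells, stood at 0.964, 0.230, 0 and 2.77 CPM in HetWT and 3.48, 4.01, 69.3, 8.49 and 11.3 CPM in WT. Its groups did not overlap, and the difference was -5.19 ± 1.34 (SE), or -3.78 without both ds1 samples.

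The other 5 genes were at or near 0 in HetWT, and all but Klra17 stood at 4.28 CPM or less in every WT sample. Klra17, a killer-cell lectin-like receptor of a family with near-identical members, had 0 counts in HetWT and 1236 in WT, which a floor of 3 counts over the HetWT group puts at least 688-fold lower. WT ds1 alone held 185 CPM of it, against 0 to 4.13 CPM in the other 4 WT samples. On the same floor Hspb9, a small heat shock protein, was at least 31.2-fold lower, Tnnc2, a troponin of fast muscle, at least 22.3-fold lower, and Vpreb1, the surrogate light chain of B cell precursors, at least 23.4-fold lower. WT replicate 4 held 3.98 CPM of Vpreb1 and the other 4 WT samples at most 0.159 CPM. B3gnt8, a glycosyltransferase, had 2 counts in HetWT and 14 in WT, a ratio of 11.7 with a counting interval of 2.68 to 105.9. Counting intervals and floors cover counting error only.

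**Figure D3:**
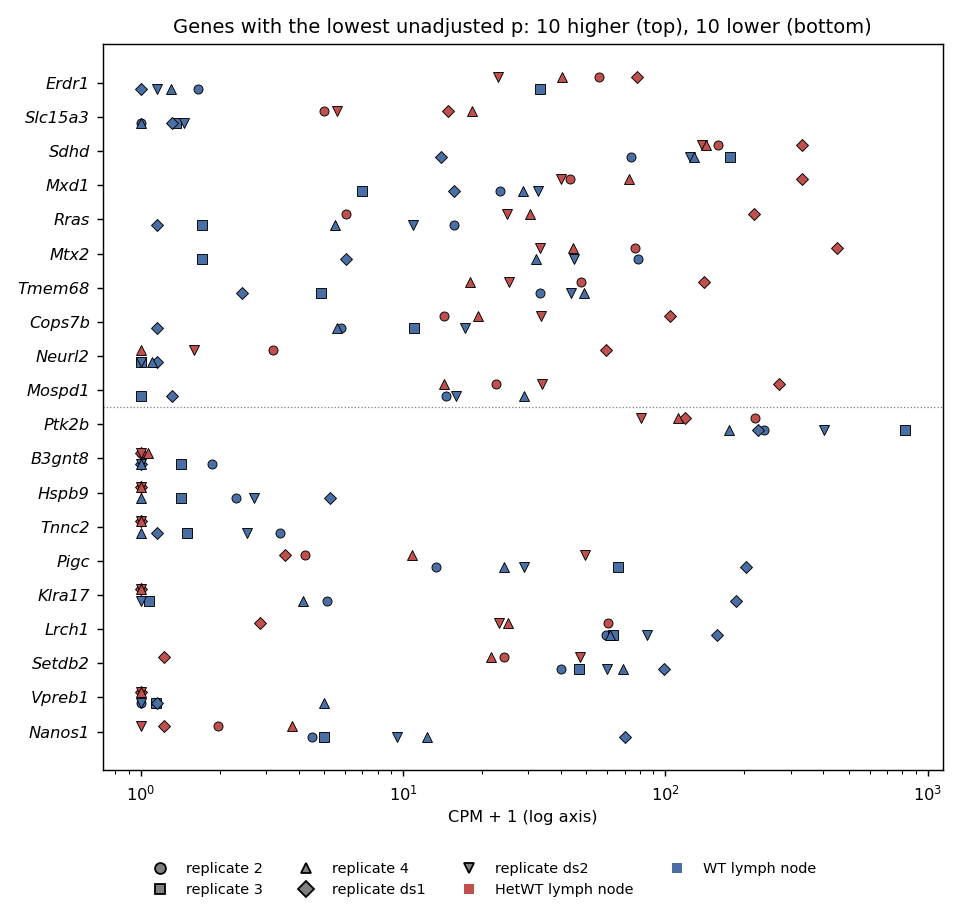
Level of the 20 genes with the lowest unadjusted p in each of the 9 lymph node samples (CPM + 1, log axis), 10 higher in HetWT above the dotted line and 10 lower below it, with HetWT in red, WT in blue and the replicate as the marker. The HetWT ds1 diamond is the highest point for 9 of the 10 upper genes, the exception being Slc15a3, and the groups are apart for Slc15a3, Mxd1 and Nanos1.

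Most genes of Treg identity had higher fitted values in HetWT, though none was called. Of 20 tested, 3 had an unadjusted p below 0.05, all higher, where 5.17% of all genes did so, 16 lay above 0 and the median was 0.53 against -0.06 for all genes. None passed after adjustment. Tnfrsf1b, which encodes the TNF receptor TNFR2 that supports Treg survival, stood at 191, 746, 141 and 185 CPM in HetWT and 67.9, 119, 77.1, 114 and 188 CPM in WT. HetWT ds1 was far above the rest, HetWT 2 lay just above the highest WT sample and the other pair of HetWT samples inside the WT range, with a difference of 1.70 ± 0.48 (SE) and 0.59 without both ds1 samples. Ikzf4, which encodes the Foxp3 partner Eos, stood at 37.9, 419, 88.1 and 108 CPM in HetWT and 31.7, 65.9, 63.7, 89.8 and 36.8 CPM in WT. Its difference was 1.77 ± 0.67 (SE) and 0.70 without both ds1 samples. Tnfrsf18, which encodes the costimulatory receptor GITR, stood at 464, 657, 585 and 583 CPM in HetWT and 366, 378, 465, 562 and 292 CPM in WT. The samples overlapped between 464 and 562 CPM, and the difference of 0.49 ± 0.24 (SE) was 0.46 without both ds1 samples and -0.024 in the double-sorted samples alone. Ctla4, the inhibitory receptor that strips CD80 and CD86 from antigen-presenting cells, stood at 648, 2185, 460.1 and 607 CPM in HetWT and 316, 839.8, 649, 314 and 310.0 CPM in WT. Its difference of 0.65 ± 0.50 (SE) had an unadjusted p of 0.222. Without both ds1 samples the median of the list was 0.33 and 0 of its members had an unadjusted p below 0.05, and in the double-sorted samples alone the median was -0.08.

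Most genes of suppressive and effector Tregs also had higher fitted values in HetWT. Of 22 tested, 5 had an unadjusted p below 0.05, all higher in HetWT, where 3.23% of all genes were so. Of the 22, 18 lay above 0 and the median was 0.86. None passed after adjustment in edgeR, while DESeq2 called Havcr2 (adjusted p = 0.0260) and Ccr8 (adjusted p = 0.0417). Havcr2, which encodes the checkpoint receptor TIM-3, stood at 4.31, 1.15, 5.60 and 4.79 CPM in HetWT and 0.435, 1.003, 0.159, 0.154 and 0.102 CPM in WT. All 4 HetWT samples lay above all 5 WT samples at very low levels, and the difference was 3.87 ± 1.06 (SE), or 4.05 without both ds1 samples. Ccr8, a chemokine receptor of activated Tregs, stood at 7.63, 25.3, 50.2 and 32.4 CPM in HetWT and 1.20, 0.430, 0, 29.6 and 9.80 CPM in WT. WT ds2 and WT 4 lay among the HetWT samples, and the difference was 3.41 ± 0.97 (SE), or 1.85 without both ds1 samples. Batf, a transcription factor of tissue Tregs, stood at 87.1, 222, 50.4 and 119 CPM in HetWT and 43.9, 34.8, 17.9, 75.3 and 79.8 CPM in WT, with a difference of 1.28 ± 0.58 (SE) and 0.48 without both ds1 samples. Prdm1, which encodes Blimp-1, stood at 51.5, 4.15, 40.4 and 46.7 CPM in HetWT and 8.92, 16.7, 3.17, 37.7 and 11.2 CPM in WT. HetWT ds1 was here the low one, and the difference was 1.40 ± 0.66 (SE), or -0.034 in the double-sorted samples alone. Tgfb1, the gene of the suppressive cytokine TGF-beta1, stood at 14.8, 0.691, 26.6 and 13.0 CPM in HetWT and 4.57, 1.72, 0.476, 18.5 and 1.12 CPM in WT, with a difference of 2.26 ± 0.99 (SE) and -0.013 by limma on the authors' log2 values. Abundant members overlapped between groups. Icos stood at 485 to 604 CPM in HetWT and 339 to 539.9 CPM in WT, and Cd44 at 170.2 to 733 CPM and 160.1 to 418 CPM. Without both ds1 samples the median was 0.46 and 3 of 22 members had an unadjusted p below 0.05. The summed level of the list was 1459 to 2827 CPM in HetWT and 1014 to 1820.5 CPM in WT, with HetWT ds1 the highest sample.

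Interferon genes gave no call. Of 18 genes of interferon gamma and Th1 cells, 3 had an unadjusted p below 0.05, where 5.17% of all genes did: Ifng and Il12rb2 were higher, Il18rap was lower, and the median was 0.11. Il12rb2, the inducible IL-12 receptor chain, had 42 counts in HetWT and 2 in WT, a ratio of 12.6 with a counting interval of 3.27 to 107.3. Il18rap, a chain of the IL-18 receptor, stood at 0.562, 1.61, 5.203 and 0.202 CPM in HetWT and 8.59, 0.287, 45.7, 15.1 and 13.7 CPM in WT. WT 3 was the low WT sample, and the difference was -3.67 ± 1.19 (SE), or -3.06 without both ds1 samples. Of 31 genes of the interferon gamma response, Cxcl10 alone had an unadjusted p below 0.05, 20 lay below 0 and the median was -0.11. Cxcl10, an interferon-induced chemokine, stood at 11.6, 253, 12.6 and 0.439 CPM in HetWT and 0.326, 9.17, 0.317, 7.26 and 12.6 CPM in WT, so that HetWT ds1 carried the difference of 3.43 ± 1.13 (SE), which was 0.26 without both ds1 samples. The 95% interval lay inside a 2-fold change for 13 of the 31 response genes, against 6.67% of all genes tested. H2-K1, a class I antigen-presenting molecule with related family members, was one of them, with an interval of -0.37 to 0.16. Of 25 type I interferon genes, Ifih1 alone had an unadjusted p below 0.05. Ifih1, which encodes the RNA sensor MDA5, stood at 36.2, 9.68, 46.2 and 42.7 CPM in HetWT and 69.9, 192, 72.9, 103 and 87.3 CPM in WT. All 4 HetWT samples lay below all 5 WT samples, and the difference was -1.63 ± 0.56 (SE), or -1.25 without both ds1 samples.

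**Figure D4:**
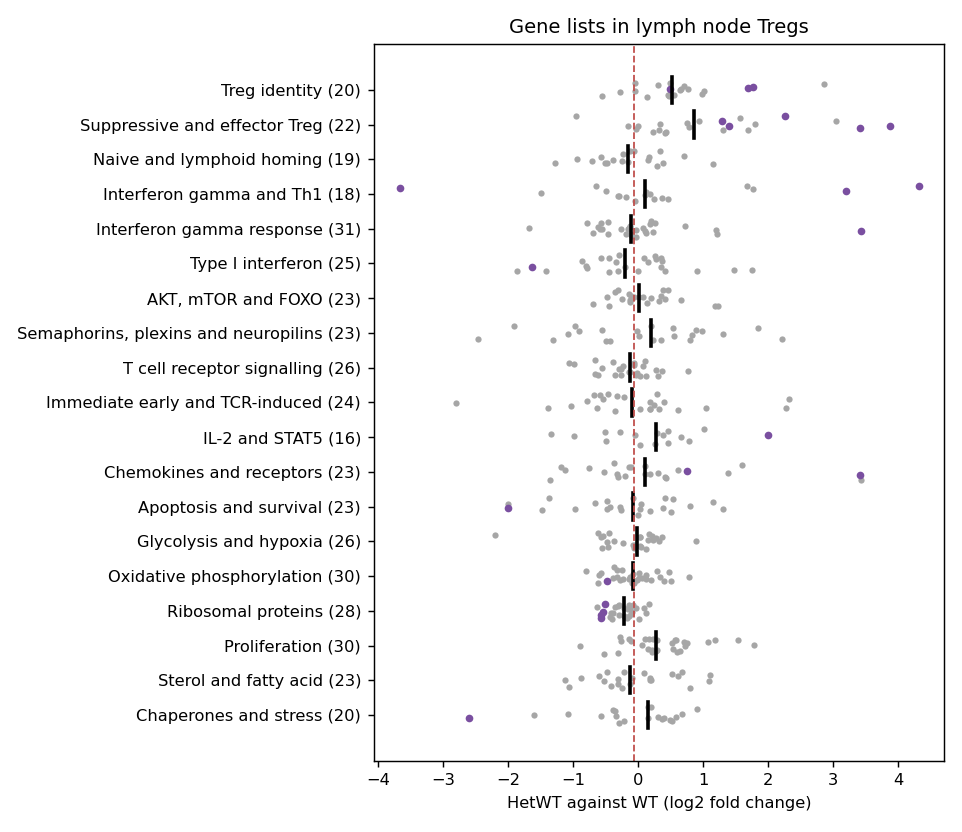
Fold change of HetWT against WT (log2) for each tested member of 19 gene lists, the number of tested members in brackets, with members of unadjusted p below 0.05 in purple, the list median as a black bar and the median of all 14668 genes as a dashed line. The medians of the Treg identity (0.53) and effector (0.86) lists lie to the right of the dashed line, and that of the ribosomal proteins (-0.21) to its left.

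Semaphorins, plexins and neuropilins gave no call, nor did genes of AKT, T cell receptor and IL-2 signalling or immediate early genes. In most of these lists few members were measured precisely. Of 23 semaphorins, plexins and neuropilins tested, 0 had an unadjusted p below 0.05, 13 lay above 0 and the median was 0.20. Only 1 of the 23 had a 95% interval inside a 2-fold change, so a 2-fold difference in the others is not excluded. Sema4d, a semaphorin of T cells, stood at 246, 233, 164 and 215 CPM in HetWT and 234, 99.97, 411, 183 and 159 CPM in WT. Of 23 genes of AKT, mTOR and FOXO signalling 0 had an unadjusted p below 0.05, the median was 0.01, and 2 had a 95% interval inside a 2-fold change. Foxo1, a transcription factor that AKT holds out of the nucleus, stood at 205 to 519.6 CPM in HetWT and 230.5 to 521 CPM in WT. Of 26 T cell receptor signalling genes 0 had an unadjusted p below 0.05, and 14 had a 95% interval inside a 2-fold change. Lck, the kinase bound to CD4, stood at 1313, 1272, 1258 and 1257 CPM in HetWT and 1154, 1017, 1709, 1419 and 1289 CPM in WT, with an interval of -0.38 to 0.27. Of 24 immediate early genes 0 had an unadjusted p below 0.05, and 1 had an interval inside a 2-fold change. Of 16 genes of IL-2 and STAT5 signalling Jak3 alone had an unadjusted p below 0.05, and 2 had an interval inside a 2-fold change. Jak3 stood at 3.51, 2.30, 61.6 and 23.9 CPM in HetWT and 8.05, 6.52, 1.27, 44.9 and 2.65 CPM in WT. Both ds2 samples were high, and the difference was 2.01 ± 0.81 (SE), or 0.36 in the double-sorted samples alone.

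Homing and adhesion genes overlapped between groups. Of 19 genes of naive cells and lymphoid homing, 0 had an unadjusted p below 0.05, 12 lay below 0 and the median was -0.16. Lef1, a transcription factor of resting T cells, stood at 339, 754, 139 and 391 CPM in HetWT and 564, 477, 852, 236 and 397 CPM in WT. The samples of the groups were interleaved. Of 23 chemokines and their receptors and integrins, Ccr8 and Itgb1 had an unadjusted p below 0.05, both higher. Itgb1 (chromosome 8, 128685654 to 128733200, plus strand) encodes the beta-1 integrin chain and lies near Nrp1 (128358604 to 128503363). Whether that position has a part in its values was not tested. Itgb1 stood at 705, 449, 735 and 804 CPM in HetWT and 401, 235, 379.9, 549 and 416 CPM in WT. HetWT ds1 lay inside the WT range and the other 3 HetWT samples lay above all 5 WT samples. The difference was 0.76 ± 0.33 (SE) (unadjusted p = 0.0275, edgeR adjusted p = 0.954) and 0.88 without both ds1 samples. It was 1.16 in the single-sorted samples alone and 0.039 in the double-sorted ones.

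Many genes of metabolism and growth were measured within narrow intervals. Of 30 genes of oxidative phosphorylation, Atp5c1 alone had an unadjusted p below 0.05 and was lower, and 17 had a 95% interval inside a 2-fold change. Atp5c1, a subunit of ATP synthase, stood at 770.1, 720.1, 436 and 782 CPM in HetWT and 864, 1155, 1868, 487 and 701 CPM in WT, and its difference of -0.47 ± 0.21 (SE) went to -0.24 without both ds1 samples. Of 26 genes of glycolysis and hypoxia 0 had an unadjusted p below 0.05 and 9 had an interval inside a 2-fold change. Of 23 genes of sterol and fatty acid synthesis 0 had an unadjusted p below 0.05, and 0 had an interval inside a 2-fold change. Of 28 ribosomal protein genes 4 had one, all lower in HetWT (Rpl23, Rpl8, Rps15 and Rpl37), where 1.94% of all genes were so, 24 lay below 0, and 21 had an interval inside a 2-fold change. Rpl8, a protein of the large subunit, stood at 2317, 6091, 1161 and 3094 CPM in HetWT and 3222, 6768, 6437, 1294 and 4142 CPM in WT. Both groups ranged widely and alike by replicate number, from the ds2 samples up, and the difference was -0.50 ± 0.22 (SE). Without both ds1 samples 9 of the 28 had an unadjusted p below 0.05 and the median went from -0.21 to -0.27, whereas with WT replicate 3 left out 0 did and the median was -0.004. Many ribosomal protein genes have processed pseudogenes that can share their reads.

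Proliferation and stress genes gave no call either. Of 30 proliferation genes 0 had an unadjusted p below 0.05, 23 lay above 0 and the median was 0.28. The median was 0.71 in the single-sorted samples alone, with 4 members at an unadjusted p below 0.05, and -0.54 in the double-sorted ones. Mki67, a protein of dividing cells, stood at 142, 395, 196 and 373 CPM in HetWT and 119, 323, 469, 211 and 160.4 CPM in WT, and Rrm2, a subunit of ribonucleotide reductase, at 131, 948, 84.9 and 154 CPM in HetWT and 62.4, 246, 65.2, 84.9 and 158 CPM in WT. HetWT ds1 held the most Rrm2, and WT ds1 the most Mki67. Of 20 chaperone and stress genes Ddit3 alone had an unadjusted p below 0.05. Ddit3, a transcription factor of the unfolded protein response, stood at 22.2, 1.15, 36.6 and 50.4 CPM in HetWT and 43.6, 127, 70.2, 26.6 and 14.2 CPM in WT. Its difference was -2.60 ± 0.79 (SE) and -0.64 without both ds1 samples. Of 23 genes of apoptosis and survival Bad alone had one. Bad, which promotes cell death, stood at 18.2, 0.691, 24.8 and 8.87 CPM in HetWT and 18.1, 51.8, 98.8, 19.9 and 12.9 CPM in WT. HetWT ds1 was the lowest and WT ds1 the highest sample, and the difference was -1.99 ± 0.85 (SE), or -0.93 without both ds1 samples. Members of the lists with an unadjusted p below 0.05 were named after their values were seen.

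Markers of other cell types were present in both groups, and for every list the summed levels of the groups overlapped. The 11 B cell markers tested summed to 83.9 to 1879 CPM in HetWT and 262 to 2354 CPM in WT, with WT replicate 2 the highest. NK cell markers summed to 6.20 to 198 CPM in HetWT and 4.08 to 126.2 CPM in WT, with HetWT replicate 2 the highest, and 2 of the 11 listed were at 0 in all 9 samples. CD8 T cell markers summed to 226 to 526 CPM in HetWT and 273 to 625 CPM in WT. Macrophage and monocyte markers summed to 122 to 345 CPM in HetWT and 144 to 391 CPM in WT, and dendritic cell markers to 196 to 1001 CPM in HetWT and 0 to 1319.7 CPM in WT. Melanoma markers summed to 9.94 to 18.6 CPM in HetWT and 4.03 to 30.6 CPM in WT and markers of neutrophils and mast cells to 0.202 to 13.1 CPM in HetWT and 0.306 to 6.74 CPM in WT. Plasma cell markers summed to 205 to 301 CPM in HetWT and 154 to 422 CPM in WT, and stromal and endothelial markers to 40.4 to 144 CPM in HetWT and 44.2 to 204 CPM in WT. Of all these markers, 4 were higher at an unadjusted p below 0.05 (Prdm1, Gzmk, Ncr1 and Xcr1) and Cd209a was lower. They were 1 of 6 plasma cell, 1 of 8 CD8 T cell, 1 of 9 NK cell and 2 of 14 dendritic cell markers tested. None was among the tested markers of B cells (11), macrophages and monocytes (16), melanoma (12), stroma and endothelium (12) or neutrophils and mast cells (3). Over all genes tested the share was 5.17%. Prdm1 is also made by effector Tregs. Xcr1, a chemokine receptor of a dendritic cell subset, stood at 3.43, 0, 9.61 and 0.978 CPM in HetWT and 1.09, 0.143, 0, 0 and 0.817 CPM in WT, and Cd209a, a lectin of other dendritic cells, at 0, 1.38, 0 and 0 CPM in HetWT and 3.81, 0.502, 0.634, 0 and 11.7 CPM in WT. Gzmk, a granzyme of CD8 T cells, had 75 counts in HetWT and 3 in WT, a ratio of 14.98 with a counting interval of 4.93 to 74.3. Markers of conventional CD4 T cells summed to 511 to 933 CPM in HetWT and 722 to 1368 CPM in WT, with 0 of 10 at an unadjusted p below 0.05. Their median was -0.39, with 3 above 0 and 7 below. Among the most abundant of them, Il6ra differed by 0.34, Actn1 by -0.26 and Ly6c1 by -0.16. Igfbp4, another of them, stood at 114, 73.7, 47.6 and 114 CPM in HetWT and 175, 170.1, 291, 132 and 189 CPM in WT. All 4 HetWT samples lay below all 5 WT samples, where 0.211% of all genes tested were so. Its difference was -1.28 ± 0.68 (SE), with an edgeR unadjusted p of 0.0764. In bulk samples, fewer cells of a type and less RNA per cell cannot be told apart, and the part of other cells in the differences above was not tested.

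HetWT and WT Tregs were compared in the same way in tumours, over 4 and 5 samples, to see whether a lymph node difference was also found there. The tissues differed in 0 of 14668 genes by the edgeR test of the interaction, and 677 (4.62%) had an unadjusted p below 0.05, while DESeq2 called 55. Erdr1 had the same sign in both tissues, with a tumour difference of 4.30 ± 0.98 (SE) (edgeR unadjusted p = 0.000373, adjusted p = 0.9999) and an edgeR adjusted interaction p of 0.997. Itgb1 was alike as well, at 0.75 ± 0.33 (SE) in tumours. Slc15a3 stood at 21.8 to 76.0 CPM in HetWT and 3.63 to 62.3 CPM in WT tumour Tregs, with a tumour difference of 0.42 ± 1.05 (SE) and an unadjusted interaction p of 0.00251. Mxd1 stood at 166 to 289 CPM and 155 to 318 CPM in tumours, above 8 of the 9 lymph node samples and with a difference of -0.21 ± 0.50 (SE). Ccr8 had a tumour difference of -0.40 ± 0.95 (SE) and an unadjusted interaction p of 0.0162, and Ifng one of 0.44 ± 1.17 (SE) and 0.154. Nrp1 had a tumour difference of -0.05 ± 0.43 (SE). None of these interactions passed after adjustment.

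**Figure D5:**
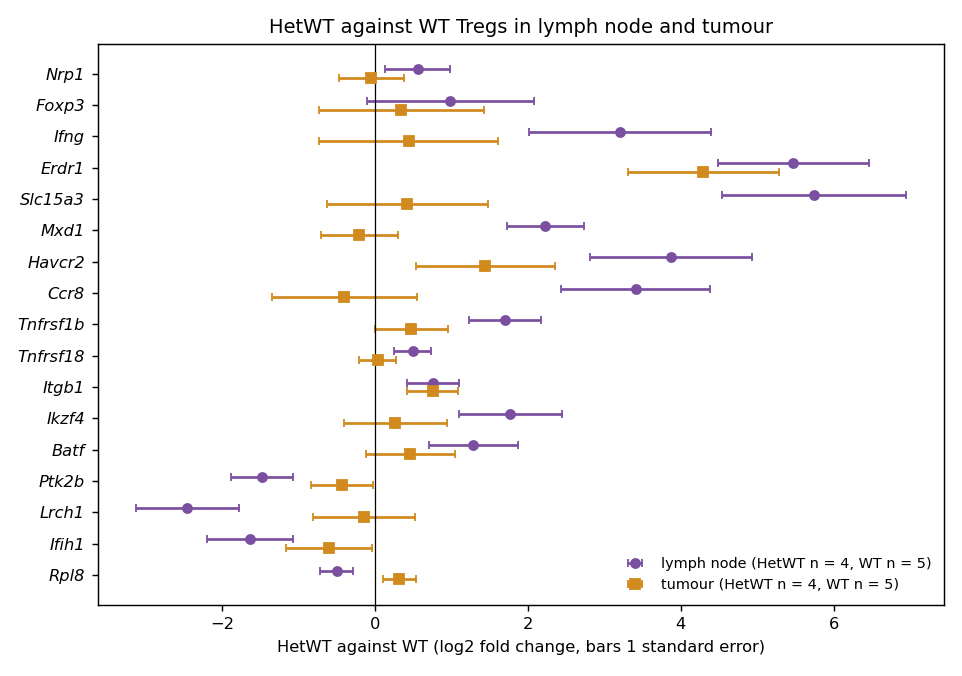
Fold change of HetWT against WT Tregs (log2, bars of 1 standard error) in lymph node (purple circles) and tumour (orange squares) for 17 genes, each over 4 and 5 samples from the same fit. Erdr1 and Itgb1 lie on the same side in both tissues at like sizes, while Slc15a3, Mxd1 and Ccr8 lie near 0 in tumours; no difference between tissues passed after adjustment.

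The cells that shared the heterozygous lymph nodes give a further reference. HetWT and HetNrp1def Tregs differed in 0 of 14668 genes at an edgeR adjusted p below 0.05, and 948 (6.46%) had an unadjusted p below 0.05, while DESeq2 called 267. Both comparisons use the HetWT samples, so their values are set side by side without further reading. Erdr1 was 0.17 apart between HetWT and HetNrp1def on the log2 scale, with 5.47 and 5.30 as their differences from WT. Havcr2 was 0.32 apart, Ifih1 -0.07, Setdb2 0.13 and Ddit3 0.28. The differences of HetNrp1def from WT were -3.60 for Setdb2, -2.88 for Ddit3, 1.26 for Mxd1 and 0.63 for Ccr8. For the other lymph node group labelled Het_Nrp1- they were -3.32, -1.91, 1.41 and 2.24 in the same order. For these 4 genes a difference from WT of the same sign was thus not particular to HetWT. Itgb1 was -0.09 apart, with 0.76 and 0.84 as the differences of HetWT and HetNrp1def from WT. In the other lymph node group labelled Het_Nrp1- the Itgb1 difference from WT was 0.92, so it was not particular to HetWT. Tnfrsf1b was 2.10 higher in HetWT and Ikzf4 2.31 higher, with edgeR adjusted p of 0.721 and 0.721 and HetNrp1def samples at 35.6 to 107 CPM of Tnfrsf1b and 4.28 to 64.5 CPM of Ikzf4. HetWT ds1 held the most of both, at 746 and 419 CPM. The lowest HetWT sample held 141 CPM of Tnfrsf1b, above the HetNrp1def range, and 37.9 CPM of Ikzf4, inside it. Slc15a3 was 3.07 higher in HetWT, with 5.74 and 2.67 as the differences of HetWT and HetNrp1def from WT. In the other lymph node group labelled Het_Nrp1- its difference from WT was 3.45. A level above WT was thus not particular to HetWT.

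The precision of the comparison sets what it can show. The median standard error of a gene's difference was 0.94 on the log2 scale, and 0.70 for the 8514 genes at a mean of 10 CPM or more. Of these 8514 genes, 978 (11.5%) had a 95% interval inside a 2-fold change in either direction, which is 6.67% of all genes tested. For most genes a 2-fold difference between HetWT and WT lymph node Tregs was thus below what these samples could resolve.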

How the data were processed

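Bulk RNA-seq of sorted mouse Tregs was used as a table of gene counts and a table of log2 values. The counts are whole reads per gene as deposited, and the submitters' processing notes name STAR, featureCounts and the mm10 build for the authors' pipeline. The log2 table is the authors' filtered and normalized version of the counts, deposited with the series, and limma is named in the same notes. Its log base was inferred from the values.

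Libraries whose counts agreed within a chi-square per degree of freedom of 5 were summed, which gave 41 samples from 45 libraries. The 4 pairs were replicates 3 and 4 of HetWT and HetNrp1def lymph node Tregs, and ds1 and 4 of the same groups in tumours. Each sum kept the number 4, so the fit of single-sorted samples includes these tumour ds1 libraries. Counts were fitted over all 41 samples with edgeR 4.0.16 in R 4.3.3 (filterByExpr, TMM, robust quasi-likelihood, replicate number as a block) and Benjamini-Hochberg adjustment at 0.05. CPM use TMM scaling. SE and 95% intervals are Wald values from that fit, and on simulated data such intervals were slightly narrow. DESeq2 1.42.0, limma 3.58.1, filters, scalings, sample subsets and the omission of each sample were alternatives. Nrp1, Foxp3 and Ifng were also tested by exact permutation, two-sided, of log2(CPM + 1).

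Named genes were Nrp1, Foxp3 and Ifng, the 10 lowest p in each direction without predicted genes, and list members by level or unadjusted p. The members and lists were chosen with earlier results of these data known. Coordinates are from GENCODE on mm10, by symbol.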

Additional observations from a re-analysis of the deposited data

Results flagged for a closer look

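Each of 57 named genes was examined in both groups, and in 16 of 114 groups of values the highest or lowest sample stood further from the nearest other than Dixon's criterion allows at the 95% level. Some such groups are found by chance alone. The samples were HetWT ds1 and WT 3 in 4 cases each, HetWT 2, HetWT ds2 and WT 4 in 2 each, and HetWT 4 and WT ds2 in 1 each.

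HetWT ds1 stood apart with Sdhd at 329 CPM, where the other HetWT samples held 137 to 157. It was also apart with Ifih1 at 9.68 CPM against 36.2 to 46.2, Prdm1 at 4.15 CPM against 40.4 to 51.5 and Cd209a at 1.38 CPM against 0. WT 3 stood apart with Erdr1 at 32.2 CPM, where the other WT samples held 0 to 0.653. In the same sample the Y-linked Ddx3y stood at 89.8 CPM and Eif2s3y at 148 CPM, and Gzmk at 0.215 CPM, all 3 at 0 in the other WT samples.

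HetWT 2 held 21.9 CPM of Ncr1 against 0 to 0.461 in the other HetWT samples, and 0.0536 CPM of Eif2s3y against 0. WT 4 held 7.96 CPM of Ncr1 against 0 to 0.573, and 3.98 CPM of Vpreb1 against 0 to 0.159. HetWT ds2 held 403 CPM of Cd3e against 130.1 to 149.8, and 436 CPM of Atp5c1 against 720.1 to 782. WT ds2 held 452 CPM of Rpl23 against 3493 to 6162. HetWT 4 held 0.0675 CPM of B3gnt8 against 0, which is 2 counts.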

How the results depend on the processing

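The count of genes between HetWT and WT lymph node Tregs with an adjusted p below 0.05 was 0 in edgeR and stayed at 0 under every edgeR and limma alternative but 2. It was 1 in the single-sorted samples alone (Slc15a3) and 1 without WT replicate 3 (Erdr1), so leaving out each sample gave 0 to 1, and it was 86 in DESeq2 with the replicate block. DESeq2 called 55 genes for the difference between tissues and 267 between HetWT and HetNrp1def. The tissue difference has no value with lymph node groups alone, and HetWT against HetNrp1def none with 2 groups alone.

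The replicate number entered as a block because the comparison was defined so. Same-numbered samples of the groups deviated together with correlations of 0.191 (2), 0.161 (ds1), 0.473 (ds2) and 0.0729 (4), and not every sample correlated best with its own number, so that the numbers may not pair the samples. With no replicate block 0 genes passed and 599 had an unadjusted p below 0.05, 70.6% of them higher, against 759 and 62.5% with it. The higher share was 49.3% with 45 libraries, 43.9% in limma, 70.0% with RLE size factors, 28.0% without both ds1 samples and 41.6% without HetWT ds1. With 2 groups alone 94 genes had an unadjusted p below 0.05, with 4 lymph node groups 226, and with no filter 1034.

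In the exact tests Nrp1 turned to -0.19 in the single-sorted samples and to -0.27 without both ds1 samples, and spanned -0.31 to 0.54 when each sample was left out. Foxp3 turned to -0.32 in the double-sorted samples. Leaving out each sample, Mtx2 spanned -0.15 to 5.30, Tmem68 -0.69 to 5.41 and Ncr1 -2.16 to 6.33 on the log2 scale. Tmem68 was -0.26 without both ds1 samples. In the double-sorted samples Prdm1 was -0.034, Tnfrsf18 -0.024 and Cd209a 0.44. Cxcl10 was -0.65 in the single-sorted samples, and in limma Tgfb1 was -0.013 and Rpl23 0.022. Over all alternatives the median of the effector list ran from 0.35 to 1.10, of the Treg identity list from -0.08 to 0.66 and of the proliferation list from -0.54 to 0.71. The cause was not tested for any of these.

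Depth, 4 against 5 samples, and the distance of HetWT ds1 from the others limit the precision. Sorting and replicate number cannot be told apart for the double-sorted samples.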
